A study of Mus musculus with 5 samples.

Results

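Neutrophils are short-lived granulocytes that leave the bone marrow in response to granulocyte colony-stimulating factor and are drawn into inflamed tissue and tumours by chemokines that bind CXCR2. Here they are 159 of 24022 cell barcodes in 5 single-cell RNA libraries of mouse mammary tumours. The neutrophils were chosen by measured counts of unique molecular identifiers (UMIs, one per captured RNA molecule) in each barcode. A neutrophil had less than 0.3% of its UMIs from Krt8, Krt18, Krt19 and Epcam, the genes of the tumour epithelium. It had at least 20 UMIs of S100a8 and S100a9 together, the calcium-binding proteins that fill neutrophil cytoplasm, and at least 1 UMI of Csf3r, the receptor of granulocyte colony-stimulating factor. It had at most 3 UMIs of the complement genes C1qa, C1qb and C1qc, which mark macrophages, and none of Cd3e or Cd79a, which mark T and B cells.

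The tumours came from SSM2, a line of mouse mammary tumour cells, of which 100000 were placed in the fourth mammary gland of mice at 10 to 12 weeks of age. In the progesterone group (3 libraries, Progesterone 1 to 3) a pellet of 60 mg under the skin released progesterone over 60 days. In the placebo group (2 libraries, Placebo 1 and 2) the pellet was a placebo. All tumours were taken between day 28 and day 62, cut up, digested with enzymes and freed of red cells, without a sort. Progesterone 1 and Placebo 1 made up batch 1, and Progesterone 2, Progesterone 3 and Placebo 2 made up batch 2, per the sample titles. The labels give neither the strain of the host nor separate mice for the libraries, and the deposited names of Progesterone 2 and Progesterone 3 differ in a letter L or R after a shared identifier. The p-values therefore measure a spread between libraries that may be technical, and that between Progesterone 2 and 3 may lie within 1 mouse. The question set by the title of the series is how progesterone alters the immune cells of such tumours.

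The libraries held 2241, 5514 and 5470 barcodes for Progesterone 1, 2 and 3 and 4940 and 5857 for Placebo 1 and 2. The median barcode held 6172 to 8212 UMIs in batch 1 and 23702 to 25316 in batch 2. The neutrophils were shallower in batch 2: their median was 2876 UMIs in Progesterone 2 and 2422 in Progesterone 3, against 4656 in Progesterone 1. It was 5670 in Placebo 1 and 3198 in Placebo 2. Placebo 1 was mostly T cells, with 3834 of its 4940 barcodes under the T cell rule. Pairs of libraries shared 2 to 12 barcode sequences. No neutrophil was called a doublet.

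As background, neutrophils are built in stages. Primary granule proteins, such as myeloperoxidase and neutrophil elastase, are transcribed in dividing promyelocytes of the marrow, and secondary granule proteins, such as cathelicidin and lactoferrin, in myelocytes. Mature neutrophils no longer divide or transcribe most granule genes. In tissue they can transcribe cytokines, among them interleukin 1 beta and the chemokine CXCL2, which recruits further neutrophils through CXCR2.

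The sequences that follow are the promoters of 2 granule genes and 2 cytokine genes, shown because these genes divide the neutrophils described below. Each runs from 250 bases before to 50 bases after the start of the gene, 5′ to 3′ on the gene's strand, from RefSeq on GRCm38.p6. Capitals mark matches to either of the 2 motifs searched on both strands, GGNNNTTCC for the NF-kB site and TTNNGNAA for the C/EBP site. Elane encodes neutrophil elastase, a protease of primary granules, and its window lies at chr10:79886062-79886361 on the plus strand.
Elane: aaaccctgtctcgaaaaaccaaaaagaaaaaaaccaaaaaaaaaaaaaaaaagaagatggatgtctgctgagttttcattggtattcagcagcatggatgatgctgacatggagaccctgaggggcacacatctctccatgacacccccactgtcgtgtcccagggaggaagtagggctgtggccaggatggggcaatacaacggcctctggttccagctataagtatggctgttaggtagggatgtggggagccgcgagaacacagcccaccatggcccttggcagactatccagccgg
Camp encodes cathelicidin, an antimicrobial peptide of secondary granules, and its window lies at chr9:109849407-109849706 on the minus strand.
Camp: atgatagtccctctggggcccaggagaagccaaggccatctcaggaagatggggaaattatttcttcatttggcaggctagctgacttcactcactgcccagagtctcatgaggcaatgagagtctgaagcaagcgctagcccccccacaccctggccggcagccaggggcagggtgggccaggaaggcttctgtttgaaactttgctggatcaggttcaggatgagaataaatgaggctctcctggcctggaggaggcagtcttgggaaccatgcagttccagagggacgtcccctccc
Cxcl2 lies on the plus strand at chr5:90903649-90903948.
Cxcl2: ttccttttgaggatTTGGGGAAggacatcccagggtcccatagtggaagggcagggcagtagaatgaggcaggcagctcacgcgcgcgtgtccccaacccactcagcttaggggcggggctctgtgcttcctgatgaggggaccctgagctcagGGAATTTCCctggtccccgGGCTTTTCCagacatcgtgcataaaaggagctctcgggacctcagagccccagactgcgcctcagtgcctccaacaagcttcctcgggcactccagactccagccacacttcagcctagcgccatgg
Il1b lies on the minus strand at chr2:129371090-129371389.
Il1b: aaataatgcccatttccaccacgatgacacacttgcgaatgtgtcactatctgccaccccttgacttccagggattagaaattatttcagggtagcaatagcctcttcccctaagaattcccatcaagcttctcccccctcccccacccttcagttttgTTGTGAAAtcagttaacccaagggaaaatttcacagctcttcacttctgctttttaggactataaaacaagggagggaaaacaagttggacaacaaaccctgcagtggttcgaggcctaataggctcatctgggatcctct
The Cxcl2 window held 2 matches of the NF-kB motif and 1 of the C/EBP motif, and the Il1b window held 1 C/EBP match. The windows of Elane and Camp held no match of either. Of 32851 mouse promoter windows of this length, 18.5% held the NF-kB motif and 40.7% the C/EBP motif, so a match is a description of the letters and not a site.

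The label of neutrophils was checked against markers outside the rule. Cxcr2 was not used to choose the cells, and 46 of 121, 8 of 13 and 11 of 16 neutrophils of Progesterone 1, 2 and 3 and 4 of 6 and 2 of 3 of Placebo 1 and 2 had a UMI of it. Levels here are UMIs summed over the cells of a library and scaled to 1000000 UMIs (CPM). Cxcr2 stood at 0 to 2 in macrophages and 0 to 3 in monocytes of the 5 libraries. Of 27 other genes of neutrophil identity, all had a UMI in the neutrophils, but most markers of other cells did too. Summed over these 27, the level outside the granule-gene-rich group defined below was 17726 to 28281 CPM in the 5 libraries. It was 1353 to 1908 CPM in macrophages and 1626 to 2476 CPM in monocytes. Clec4d, a C-type lectin receptor of myeloid cells, was found in 89.4% of the neutrophils outside the granule-gene-rich group defined below, and Il1r2, the decoy receptor of interleukin 1, in 86.1%. Ly6g, the surface antigen used to sort mouse neutrophils, had 8 UMIs in 4 neutrophils in all, and Retnlg, a resistin-like gene of blood neutrophils, was found in 41 of those 151.

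Markers of other cells were sparse. Epx, Prg2 and Il5ra of eosinophils, Prss34 and Cpa3 of basophils and mast cells and Ms4a1 of B cells were at 0 in all neutrophils. Summed over 11 macrophage markers, the level in the neutrophils outside the granule-gene-rich group was 514, 363 and 453 CPM in Progesterone 1, 2 and 3 and 379 and 669 CPM in Placebo 1 and 2, against 10006 to 35611 CPM in macrophages. The list includes C1qa, C1qb and C1qc, which the rule caps in neutrophils and by which the macrophages were chosen. The gap is therefore partly set by the rules and is given as a description. Ms4a7 of macrophages was at 0. The rule caps Krt8, Krt18, Krt19 and Epcam, 4 of the 8 tumour epithelial markers, so their sum is given as a description. It was 149, 1913 and 1644 CPM in Progesterone 1, 2 and 3 and 63 and 780 CPM in Placebo 1 and 2, so batch 2 lay above batch 1 in both treatments. Macrophages, monocytes and T cells, under the same cap, showed the same order, at 19 to 161 CPM in batch 1 and 667 to 1435 CPM in batch 2. S100a8 and S100a9 were also found outside the neutrophils. In Progesterone 1 38.2% of T cells and 27.1% of tumour cells had a UMI of either, at medians of 9162 and 3109 UMIs per barcode. In the other libraries the share was 0 to 7.54% of T cells and 2.93 to 10.9% of tumour cells. The median was 0 UMIs of the pair in both cell types of all 5 libraries, and 1 of 4399 T cells and 12 of 9537 tumour cells held 20 or more.

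In Progesterone 1 the limit of the rule on S100a8 and S100a9 left barcodes close on both sides. Just inside, 26 neutrophils had 20 to 29 UMIs of the pair, of which 19 were in Progesterone 1. Just outside, 27 barcodes that met all other conditions had 10 to 19, of which 26 were in Progesterone 1 and 1 in Progesterone 3. The limit alone left out 347 barcodes, of which 171 had no UMI of either gene, 71 met the monocyte rule and 30 had a UMI of Cxcr2. Of those 30, 27 were in Progesterone 1. The Csf3r limit alone left out 28 barcodes and the epithelial limit 14.

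Neutrophils were more frequent among leukocytes in each progesterone library than in either placebo library. They numbered 121, 13 and 16 in Progesterone 1, 2 and 3 and 6 and 3 in Placebo 1 and 2. As a share of barcodes under the same epithelial limit with Ptprc, the leukocyte antigen CD45, neutrophils without a Ptprc UMI included, this was 7.91% (6.61 to 9.38%, exact 95% interval, counting error only), 1.10% (0.586 to 1.87%) and 1.90% (1.09 to 3.07%) in Progesterone 1, 2 and 3. The share was 0.128% (0.0471 to 0.279%) in Placebo 1 and 0.341% (0.0704 to 0.994%) in Placebo 2. The treatments did not overlap, and Progesterone 1 lay well above the other progesterone libraries.

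**Figure D1:**
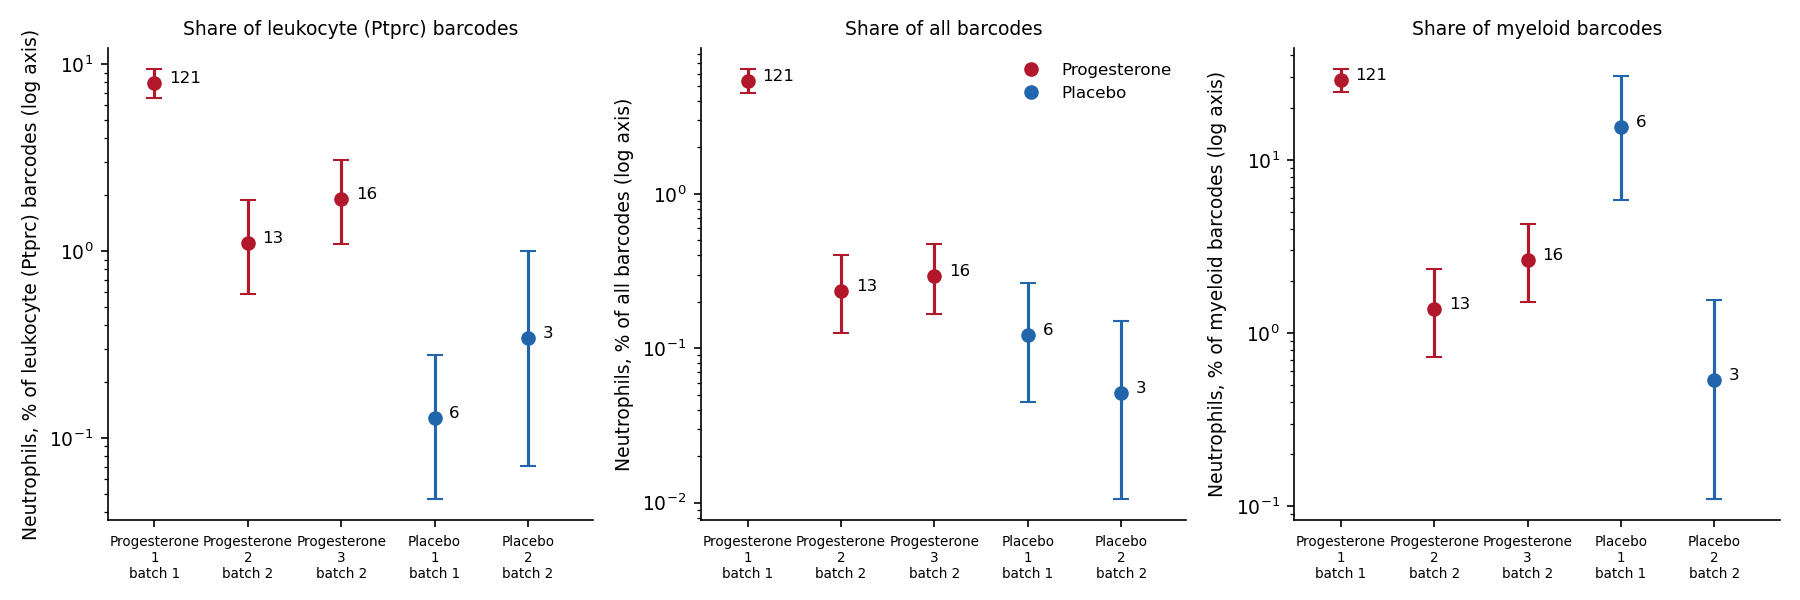
Share of neutrophils in each library, on log axes, among barcodes with Ptprc, all barcodes and myeloid barcodes. Points are libraries with exact 95% binomial intervals and the count of neutrophils beside each point; Progesterone 1 is highest in all 3 panels, and Placebo 1 lies above Progesterone 2 and 3 among myeloid barcodes.

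The mean log2 share was 3.48 higher with progesterone, and an exact two-sided permutation over the 5 libraries gave p = 0.1, the smallest that 10 arrangements allow (the test divides by barcodes with Ptprc, with 0.5 added to the neutrophils and 1 to the barcodes). Within batch 1 the share was 57.7-fold higher in Progesterone 1 than in Placebo 1. Within batch 2 it was 2.87-fold higher in Progesterone 2 and 4.93-fold higher in Progesterone 3 than in Placebo 2, where it rested on 3 neutrophils. The interval of Progesterone 2 overlapped that of Placebo 2, and that of Progesterone 3 did not. Permutation within batches gave p = 0.167, the smallest that 6 arrangements allow. Fewer leukocytes of other types in a library raise this share as more neutrophils do, and these cannot be told apart.

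The order depended on what the neutrophils were counted against. Among all barcodes they were 5.40%, 0.236% and 0.293% in Progesterone 1, 2 and 3 and 0.121% and 0.0512% in Placebo 1 and 2, with a log2 difference of 3.06 (exact permutation, p = 0.3). Among myeloid barcodes, counted as neutrophils, macrophages and monocytes, they were 28.7%, 1.37% and 2.64% in Progesterone 1, 2 and 3. They were 15.4% of the 39 myeloid barcodes of Placebo 1 and 0.534% of the 562 of Placebo 2, so the treatments overlapped and the log2 difference was 0.60 (exact permutation, p = 0.8).

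A small group of neutrophils stood apart by granule genes. In 8 of the 159, the genes Mpo, Elane, Prtn3, Ctsg, Camp, Ngp and Ltf made up 1.90% to 5.48% of UMIs, and in the other 151 at most 0.534%. The division at 1% was set after these values were seen and is given as a description. The 8 lay in batch 1, with 6 of 121 neutrophils in Progesterone 1 and 2 of 6 in Placebo 1. None was found among the 13, 16 and 3 neutrophils of Progesterone 2, Progesterone 3 and Placebo 2, which allows shares of up to 24.7%, 20.6% and 70.8% (upper ends of exact 95% intervals). They were large in RNA, with 25929 to 68688 UMIs each, against 778 to 25779 in the others. They held 33.1% of the neutrophil UMIs of Progesterone 1 and 85.6% of those of Placebo 1.

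**Figure D2:**
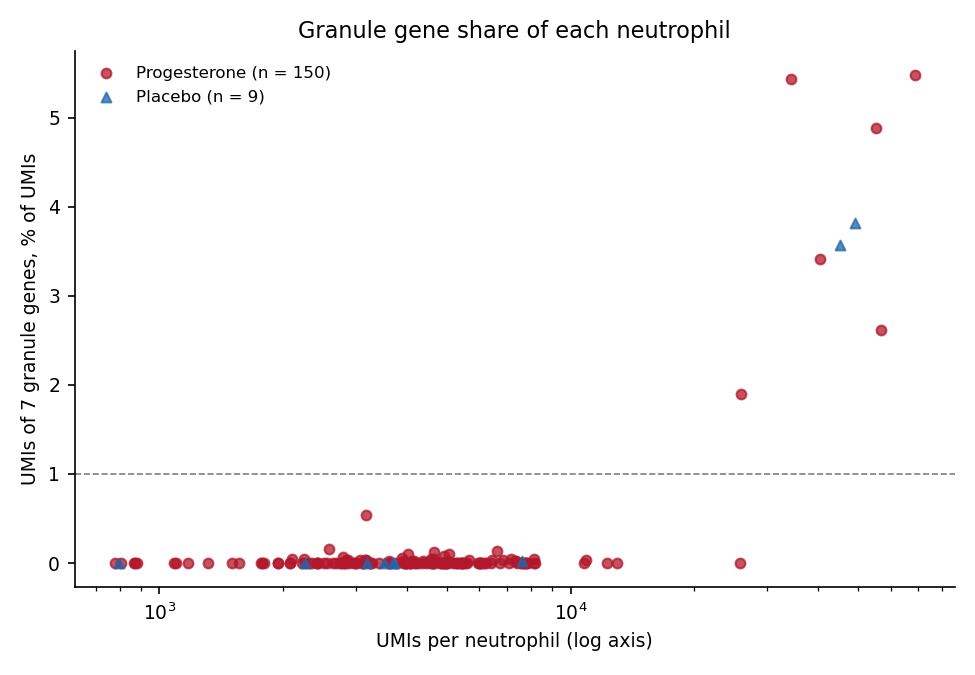
Each point is a neutrophil, with its UMIs on a log axis and the percent of them from 7 granule genes. The 8 points above the dashed line at 1% have 25929 UMIs or more, and the other 151 lie at 0.534% or less.

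Among the neutrophils, the primary granule genes were found in these cells alone. Mpo, the myeloperoxidase gene, had 873 UMIs in 5 of the 8, Elane had 1605 in 7, Prtn3 for proteinase 3 had 2453 in all 8, and Ctsg for cathepsin G had 287 in 5. Each had 0 UMIs in the other 151 neutrophils. These genes, with Camp, Ngp and Ltf, are those by which the group was set apart, so the split in them is a description. Ms4a3 and Prss57, which were not used for it, also had 0 UMIs in the other 151. Outside the neutrophils, the 6 primary granule genes summed to 996 CPM in the 16 monocytes of Placebo 1. In the monocytes of the other libraries and in all macrophages the sum was at most 17.8 CPM. Of the secondary granule genes, Camp had 6371 UMIs in the 8 and 10 in the other 151, and Ngp for neutrophilic granule protein had 3262 and 18. The 8 differed among themselves. In 3 of them Mpo was at 0, Elane at 0 to 4 UMIs and Ltf, for lactoferrin, at 40 to 173 UMIs. In the other 5 Mpo had 78 to 311 UMIs, Elane 82 to 480 and Ltf at most 2. Camp, Ngp and Ltf lie on chromosome 9 between 109847379 and 111042767, and Prtn3 and Elane on chromosome 10 between 79874476 and 79888215 (GRCm38 positions from the GENCODE annotation).

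Genes of cell division followed the same split in the main. The 10 cell cycle genes summed to 3486 CPM in the 8 and 167 CPM in the other 151, so the split was not complete over the list. Mki67, a nuclear protein of cycling cells, had 4 to 81 UMIs in each of the 8 and 0 in the other 151. Top2a, the topoisomerase of chromosome separation, had 209 UMIs over all 8 and 0 in the others. Cebpe, a transcription factor of developing granulocytes, had 116 UMIs in all 8 and 2 in the others. In turn, Cxcl2 had 13 UMIs in the 8 and 13876 in the others, and Il1b had 4 and 5922. Ly6c2, a surface antigen of monocytes and of granulocyte precursors, had 494 UMIs in the 8, while Ccr2, the chemokine receptor of monocytes, had 0.

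Most of the other 151 neutrophils held UMIs of the cytokine genes Cxcl2 and Il1b. Cxcl2 stood at 20200, 25886 and 19204 CPM in Progesterone 1, 2 and 3 and at 19825 and 19398 CPM in Placebo 1 and 2. The treatments overlapped and the 5 summed levels lay within a narrow range, but those of Placebo 1 and 2 rest on 4 and 3 neutrophils. In Placebo 1 a single neutrophil held 241 UMIs of Cxcl2, and the others held 0 to 46 each. The level in macrophages of the same libraries was 632 to 5222 CPM. Il1b stood at 6869, 20728 and 14939 CPM in Progesterone 1, 2 and 3 and at 17489 and 27536 CPM in Placebo 1 and 2, so Progesterone 1 was the lowest of the 5. Cxcl2 was found in 87.4% and Il1b in 89.4% of the 151. Il1rn, the antagonist of the interleukin 1 receptor, was found in 74.8%.

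**Figure D3:**
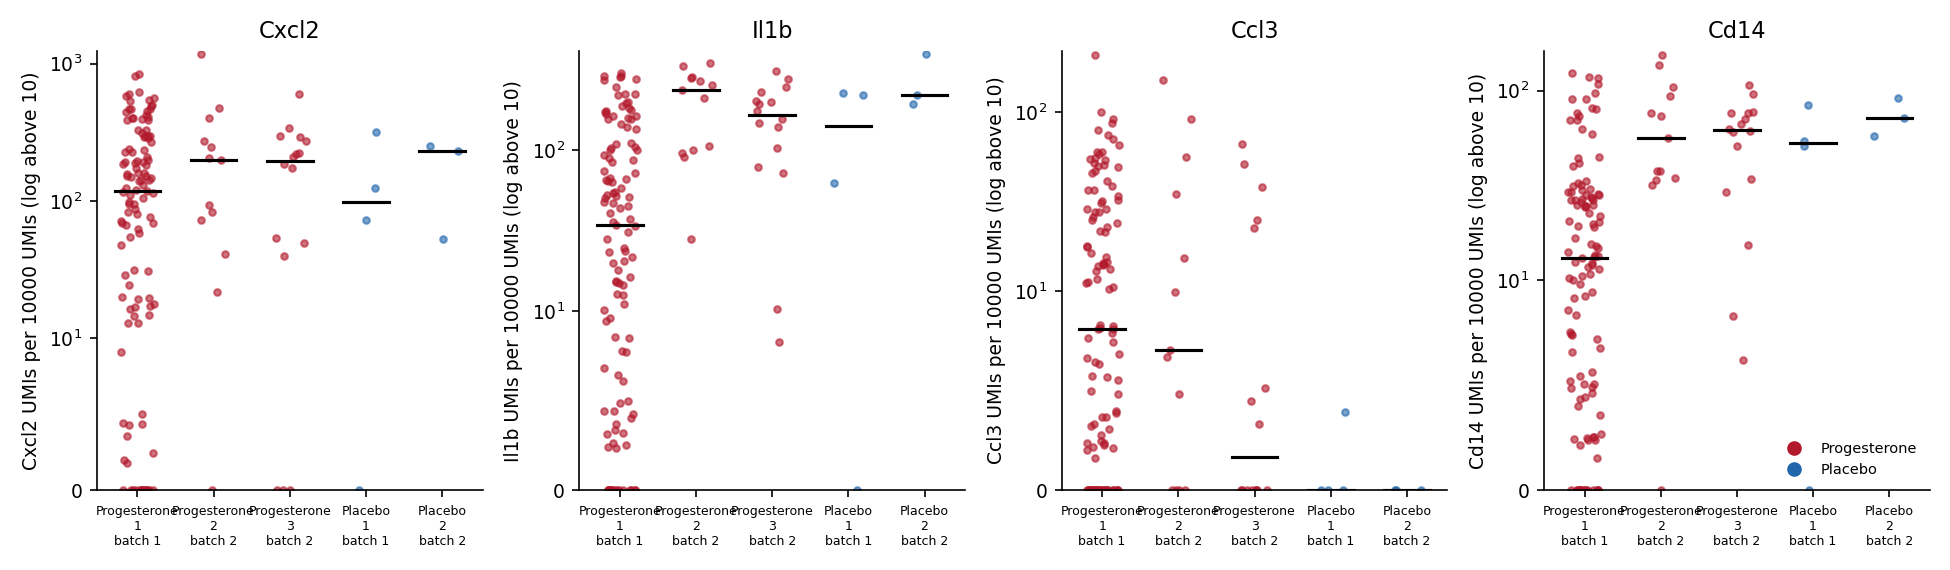
UMIs of Cxcl2, Il1b, Ccl3 and Cd14 per 10000 UMIs in each of the 151 neutrophils outside the granule-gene-rich group, by library, on axes that are linear to 10 and logarithmic above. Black bars are medians; Il1b and Cd14 lie lowest in Progesterone 1, and the Ccl3 medians of both placebo libraries are at 0.

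Acod1, which makes the metabolite itaconate, was found in 76.8% of the 151 and stood at 12 to 44 CPM in macrophages of 4 libraries and at 0 in those of Placebo 1. In the neutrophils it stood at 3911, 2857 and 2859 CPM in Progesterone 1, 2 and 3 and at 2904 and 1115 CPM in Placebo 1 and 2. Ptgs2, the cyclooxygenase of prostaglandin synthesis, stood at 3265, 2518 and 2931 CPM in the progesterone libraries and at 1389 and 2230 CPM in the placebo libraries. Arg1, an arginase used to define suppressive neutrophils, was found in 16 of the 151, and 173 of its 206 UMIs in Progesterone 1 came from a single neutrophil. Siglecf, a lectin used to mark a tumour neutrophil state, had 21 UMIs in 14 of them, and Cxcr4, the receptor that retains neutrophils in marrow, was found in 68.2%. Il6, Cxcl5, Cxcl12 and Il17a had 0 UMIs in all neutrophils.

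Of hormone receptors, Pgr, the progesterone receptor, had 6 UMIs, each in a different neutrophil, with 3, 2 and 1 in Progesterone 1, 2 and 3 and 0 in both placebo libraries. Tumour cells held Pgr at 167 to 509 CPM, and T cells, which as a rule lack it, at 0.142 to 5.84 CPM. A single UMI is already 24.2 CPM in Progesterone 2 and 23.8 CPM in Progesterone 3, above that T cell range. The level in neutrophils therefore cannot be set against that in T cells, and these 6 UMIs are too few to be read as expression. In the 110230 and 8970 neutrophil UMIs of Placebo 1 and 2, a count of 0 allows up to 27.2 and 334 CPM. Nr3c1, the glucocorticoid receptor, was found in 61 of the 151. Of 16 genes of steroid receptors and their shared targets, 1 could be tested between treatments and did not pass.

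No gene passed the test between progesterone and placebo in the neutrophils. UMIs were summed per library and compared over all 5 libraries with batch as a covariate, which rests on 6 and 3 placebo neutrophils, since no placebo library reached the planned 10. edgeR called 0 of 862 genes (0.0%) at an adjusted p under 0.05, with 37 at an unadjusted p under 0.05, and DESeq2 called 0 with 34. Without Progesterone 1, edgeR called 7, of which 6 were higher. Every gene list was therefore without a call. The 10 cytokine genes tested had a median log2 ratio of 1.11, with 7 above 0, and the 15 hypoxia and glycolysis genes one of 0.38, with 9 above 0, against a median of -0.05 over all genes. Without the granule-gene-rich cells edgeR called 0 of 892 genes, with 50 at an unadjusted p under 0.05. The median was then 0.60 for 12 cytokine genes, with 8 above 0, and 0.75 for 13 hypoxia and glycolysis genes, with 12 above 0, against 0.18 over all genes.

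The chemokines with the largest unadjusted differences are given as values. Ccl3, a chemokine of myeloid cells, stood at 2265, 2930 and 1287 CPM in Progesterone 1, 2 and 3 and at 189 and 0 CPM in Placebo 1 and 2, in the neutrophils outside the granule-gene-rich group. The treatments did not overlap, and over the same cells the log2 ratio was 4.39 ± 0.89 (SE, edgeR, adjusted p = 0.166). With all neutrophils it was 4.46 ± 1.20 (edgeR, adjusted p = 0.774). Without Progesterone 1 it was 5.44, but batch 1 then held Placebo 1 only, so this ratio sets Progesterone 2 and 3 against Placebo 2 alone. Ccl4, its close relative, stood at 1418, 1550 and 1072 CPM in Progesterone 1, 2 and 3 and at 0 and 112 CPM in Placebo 1 and 2, with a log2 ratio of 4.72 ± 0.94 over the same cells (SE, edgeR, adjusted p = 0.166) and 5.16 ± 1.13 with all neutrophils (adjusted p = 0.581). Thbs1, the matrix protein thrombospondin 1, stood at 884, 1211 and 1811 CPM in Progesterone 1, 2 and 3 and at 63.1 and 0 CPM in Placebo 1 and 2. Dusp2, a phosphatase of MAP kinases, stood at 91.2, 339 and 143 CPM in the progesterone libraries and at 63.1 and 2453 CPM in the placebo libraries, so Placebo 2 was the highest library. The Placebo 1 values of Thbs1 and Dusp2 are 1 UMI each. Ccl3 had 3 UMIs in Placebo 1, all in 1 neutrophil, and Ccl4 had 1 UMI in Placebo 2. The placebo levels of Ccl3, Ccl4 and Thbs1 thus rest on 0 to 3 UMIs, from 4 and 3 neutrophils. In Progesterone 1 a single neutrophil held 94 of the 504 UMIs of Thbs1. These 4 genes were chosen after their values were seen.

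Among the progesterone libraries, Progesterone 1 was set against Progesterone 2 and 3. edgeR compared Progesterone 2 and 3 of batch 2 with Progesterone 1 of batch 1 and called 86 of 1079 genes (7.97%), of which 35 were higher in batch 2 (3.24%) and 51 lower (4.73%). The comparison has 1 library on one side and 1 residual degree of freedom. Its spread comes from Progesterone 2 against Progesterone 3, which may be 1 mouse, so each call describes these libraries and not the batches. Batch, tumour, depth and RNA of other cells cannot be told apart in it. Without a filter on low counts edgeR called 0 of 12263 genes, with 557 at an unadjusted p under 0.05, and DESeq2 called 29. Without the granule-gene-rich neutrophils edgeR called 74 of 1125 genes (6.58%), 16 higher (1.42%) and 58 lower (5.16%), and 46 genes were called in both, 53.5% of the first list and 62.2% of the second. S100a8, S100a9, Krt8, Krt18 and Krt19 were called in one or both fits, but the rule limits their counts, so no difference is claimed for them. In Progesterone 1, 1 of the other neutrophils held 25779 UMIs. Without it as well, a choice made after seeing the data, edgeR called 106 of 1126 genes (9.41%), 30 higher (2.66%) and 76 lower (6.75%), and 67 of the 74 were among them.

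With all neutrophils, granule genes led the lower calls, and those calls rest on the 6 granule-gene-rich cells of Progesterone 1. Prtn3, Elane and Mpo had 0 UMIs in Progesterone 2 and 3, passed the count filter through Progesterone 1 and could be called in 1 direction only, so no count of them is read. They had 1031, 684 and 321 UMIs in Progesterone 1. Camp was at 72.6 and 0 CPM in Progesterone 2 and 3 and at 7243 CPM in Progesterone 1. These 4 genes were at 0 to 12.3 CPM in Progesterone 1 once its 6 granule-gene-rich neutrophils were left out. Lyz2, the lysozyme gene, was at 121 and 143 CPM in Progesterone 2 and 3 and 947 CPM in Progesterone 1 without them (log2 ratio -2.80 ± 0.70, SE, edgeR adjusted p = 0.0024). The neutrophil of 25779 UMIs held 373 of its 540 UMIs in Progesterone 1, and without that cell Lyz2 did not pass (log2 ratio -1.18 ± 0.76, edgeR adjusted p = 0.34).

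Genes of hypoxia and glycolysis were lower in Progesterone 2 and 3, with or without the granule-gene-rich neutrophils. All 20 genes of the list had a lower CPM in both than in Progesterone 1 without those cells. Of 17 tested of 20, 4 fell with all neutrophils and 6 without the granule-gene-rich ones, none rose, and the log2 ratio was below 0 for all 17 in both fits. The median was -1.46 and -1.41, against 0.07 and 0.03 over all genes, of which 4.73% and 5.16% were called lower. Without the neutrophil of 25779 UMIs as well, 7 of 18 fell. Ero1l, an oxidase of the endoplasmic reticulum, stood at 315 and 477 CPM in Progesterone 2 and 3, against 3263 CPM in Progesterone 1 (log2 ratio -3.06 ± 0.60, SE, edgeR adjusted p = 7.8e-05, without the granule-gene-rich neutrophils as for the genes that follow). Hilpda, which coats lipid droplets, stood at 412 and 286 CPM in Progesterone 2 and 3, against 1805 CPM in Progesterone 1 (adjusted p = 0.005). Egln3, an oxygen-sensing prolyl hydroxylase, stood at 121 and 95.3 CPM in Progesterone 2 and 3, against 804 CPM in Progesterone 1 (adjusted p = 0.0014).

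The same list held enzymes of glucose use. Aldoa, the aldolase of glycolysis, stood at 484 and 334 CPM in Progesterone 2 and 3, against 1821 CPM in Progesterone 1 (edgeR adjusted p = 0.012). Hk2, a hexokinase, and Bnip3, a mitochondrial protein of mitophagy, also fell, with log2 ratios of -2.17 and -2.12. Ldha, the lactate dehydrogenase subunit, did not pass, at 436 and 524 CPM in Progesterone 2 and 3, against 1565 CPM in Progesterone 1 (adjusted p = 0.062, and 0.020 without the neutrophil of 25779 UMIs as well), nor did Vegfa, the growth factor of blood vessels, at 509 and 405 CPM in Progesterone 2 and 3, against 958 CPM in Progesterone 1 (adjusted p = 0.34).

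**Figure D4:**
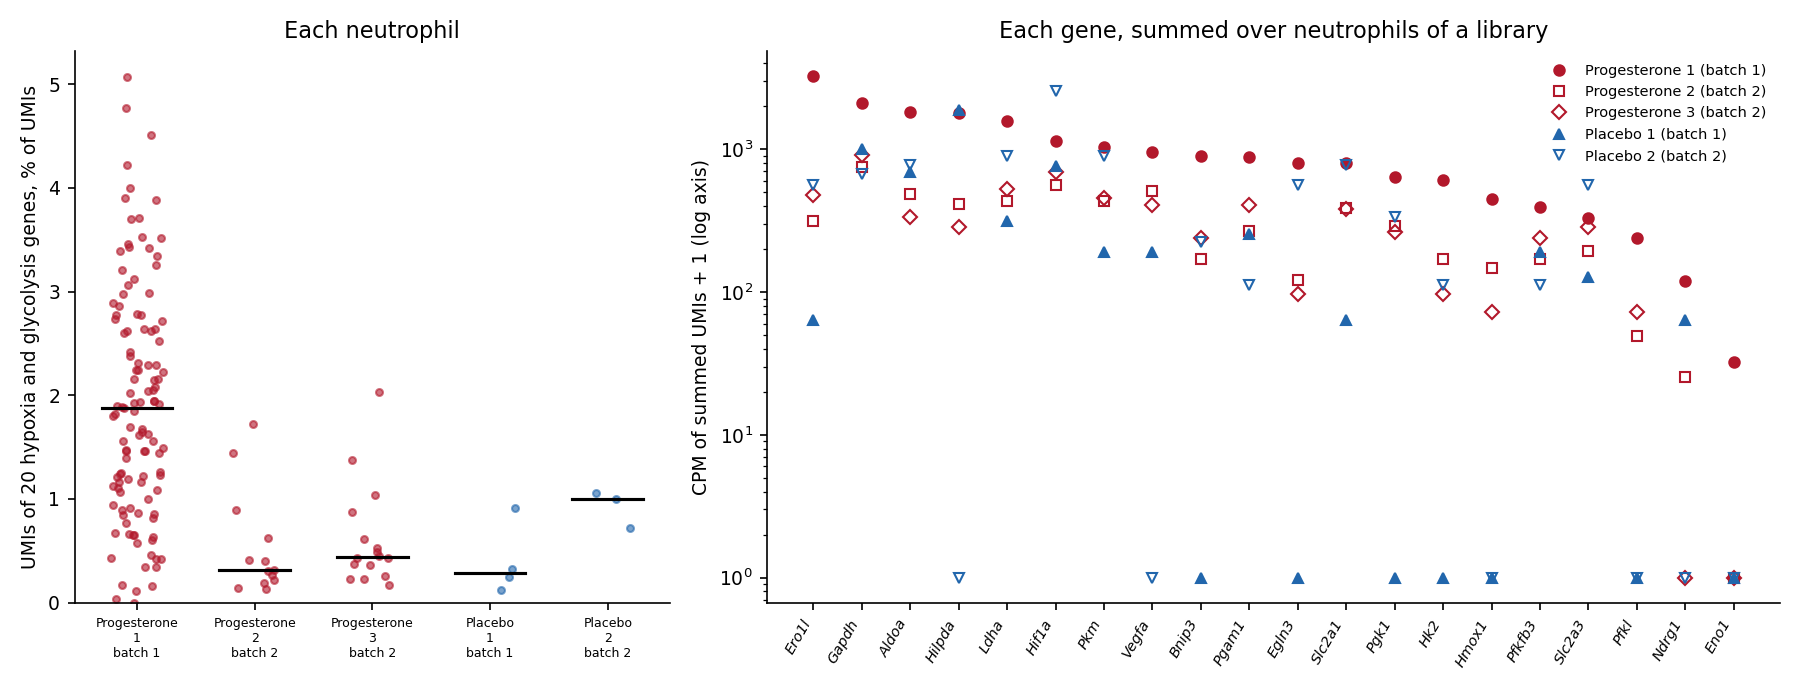
Left, UMIs of 20 hypoxia and glycolysis genes as a percent of the UMIs of each of the 151 neutrophils, with the median as a black bar. Right, the CPM of each gene plus 1 on a log axis for the 5 libraries; the median neutrophil of Progesterone 1 is at 1.88%, and the other medians lie between 0.283% and 0.997%.

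The level was spread over the cells of Progesterone 1 and not held by a few. The 20 genes made up a median of 1.88% of UMIs per neutrophil there (0 to 5.07%, 115 cells), against 0.313% (0.13 to 1.72%, 13 cells) in Progesterone 2 and 0.442% (0.17 to 2.03%, 16 cells) in Progesterone 3. In the placebo libraries it was 0.283% (0.125 to 0.918%, 4 cells) in Placebo 1, of the same batch as Progesterone 1, and 0.997% (0.719 to 1.06%, 3 cells) in Placebo 2. Other cells of the libraries had the same highest library: the sum of the list was 12424 CPM in macrophages of Progesterone 1 and 5864 to 7930 CPM in those of the other 4 libraries, and 12937 CPM in its tumour cells and 7044 to 10417 CPM in the others. In T cells Progesterone 1 was not the highest, at 2494 CPM, with 1291 to 4078 CPM in the others.

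Other genes outside the lists were also lower in Progesterone 2 and 3. Gpnmb, a glycoprotein of lysosomes, had 0 UMIs in Progesterone 2 and 3 and 252 UMIs, or 442 CPM, in Progesterone 1. These UMIs came from 14 of its 115 neutrophils, with 65 in a single cell, so no fold is given. Fnip2, a partner of folliculin in nutrient signalling, stood at 24.2 and 23.8 CPM in Progesterone 2 and 3, against 974 CPM in Progesterone 1, and its relative Fnip1 fell too (log2 ratio -3.45 ± 0.73, SE, edgeR adjusted p = 0.00029). Of 8 suppressive neutrophil genes tested, Cd14 was called higher with all neutrophils. Without the granule-gene-rich cells Arg1 and Cd274 were called lower and Cd14 was not called. The call of Arg1 rests on 1 neutrophil, and without it the gene did not reach the count filter, while Cd14 was called again. Cd274, which encodes the checkpoint ligand PD-L1, stood at 557 and 167 CPM in Progesterone 2 and 3, against 1525 CPM in Progesterone 1 (adjusted p = 0.021), and was found in 61.6% of the 151. With all neutrophils it did not pass (adjusted p = 0.069). Of 8 interferon-stimulated genes tested with all neutrophils, Ifitm2 rose (log2 ratio 1.44, adjusted p = 0.038) and Rsad2 fell. Without the granule-gene-rich cells 3 of 9 fell and none rose, and these were Rsad2, Slfn4 and Cd274, which is on both lists. Over all genes tested, 4.73% were called lower and 3.24% higher with all neutrophils, and 5.16% and 1.42% without the granule-gene-rich cells. Without the neutrophil of 25779 UMIs as well, Ifitm2 was again called higher. Rsad2, which encodes the antiviral protein viperin, stood at 72.6 and 23.8 CPM in Progesterone 2 and 3, against 669 CPM in Progesterone 1 without the granule-gene-rich cells (adjusted p = 0.00014).

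Il1b and a few NF-kB and immediate early genes were among the higher calls. Of 13 cytokine genes tested, 1 was called higher in both fits. Of 19 NF-kB and immediate early genes, 3 were called higher with all neutrophils and 1 without the granule-gene-rich ones. Over all genes 3.24% and 1.42% were called higher in these fits. Without the granule-gene-rich cells the cytokine list had a median log2 ratio of -0.15, with 7 of 13 below 0. Il1b rose in Progesterone 2 and 3, with the CPM given above (log2 ratio 1.86 ± 0.44 with all neutrophils, edgeR adjusted p = 0.0013, and 1.33 ± 0.41 without the granule-gene-rich ones, adjusted p = 0.024, SE). Nfkb1, a subunit of NF-kB, stood at 1404 and 1120 CPM in Progesterone 2 and 3, against 298 CPM in Progesterone 1 (adjusted p = 0.049 without the granule-gene-rich cells). Bcl2a1d, a survival protein of the BCL2 family, stood at 678 and 310 CPM in Progesterone 2 and 3, against 87.7 CPM in Progesterone 1 (adjusted p = 0.013). Its near-identical copies Bcl2a1a and Bcl2a1b may share reads with it, so the values of the 3 are uncertain.

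Several higher calls changed with the cells left out. Cebpb, the transcription factor of emergency granulopoiesis, had a log2 ratio of 1.67 with all neutrophils (edgeR adjusted p = 0.0045) and 1.22 without the granule-gene-rich cells (adjusted p = 0.067), at 14239 and 10174 CPM in Progesterone 2 and 3, against 5076 CPM in Progesterone 1. Without the neutrophil of 25779 UMIs as well it was 1.20 (adjusted p = 0.030). The log2 ratios with all neutrophils and without the granule-gene-rich cells were 1.54 and 1.13 for Cd14, 1.46 and 0.99 for Junb, and 1.90 and 1.47 for G0s2. These 3 passed with all neutrophils and had adjusted p-values of 0.17, 0.24 and 0.062 without the granule-gene-rich cells. Without the further neutrophil Cd14 and G0s2 passed again (adjusted p = 0.024 and 0.0096) and Junb did not (0.10). The cytokine list gave 1 higher and 0 lower calls among 13 tested with all neutrophils, and 1 higher and 1 lower without the granule-gene-rich ones. The lower one was Cxcl1, a further CXCR2 ligand, of which a single neutrophil held 137 of 220 UMIs in Progesterone 1. Without that cell it did not reach the count filter, and Cxcl3 was called lower in its place. Cxcl2 did not pass in either of the first 2 fits, with an adjusted p of 0.48 and 0.89.

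Among the highest calls was a gene of the tumour epithelium. Wfdc2, a secreted protein of epithelia, stood at 387 and 524 CPM in Progesterone 2 and 3, against 15.8 CPM in Progesterone 1 (log2 ratio 4.18 ± 0.78, SE, edgeR adjusted p = 3.3e-05), and it had the same order in macrophages, at 168 and 124 CPM in Progesterone 2 and 3, against 10.6 CPM in Progesterone 1. Tumour cells held it at 1138 to 3472 CPM. The part of such RNA in the other differences between these libraries was not tested. Of the other higher calls, Phlda1, Fgl2, Gpr132 and Rdh12 were called in both fits, with log2 ratios of 2.64, 2.40, 2.42 and 3.10 without the granule-gene-rich cells.

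Neutrophil receptors showed no call in this comparison. None of 8 chemoattractant receptors, 9 cytokine receptors, 5 NADPH oxidase subunits or 3 tertiary granule genes passed without the granule-gene-rich cells, and none of the same lists with all neutrophils. Csf3r, which was used by the rule, stood at 872 and 2049 CPM in Progesterone 2 and 3, against 1342 CPM in Progesterone 1. Cxcr2 stood at 363 and 405 CPM in Progesterone 2 and 3, against 242 CPM in Progesterone 1.

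Retnlg varied between neutrophils without a strong partner. In Progesterone 1, over 108 neutrophils thinned to 2000 UMIs each, the closest gene was Nr3c1 (Spearman's rho 0.49) and the most opposed Bcl2a1b (-0.33). In Progesterone 2 and 3, with 13 neutrophils each, rho with Nr3c1 was -0.16 and -0.27. In counts this sparse, with shared library and depth, these values are a description.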

How the data were processed

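The deposited values are counts: UMIs of 24860 gene symbols in each barcode, in whole numbers and not normalised. They came from Cell Ranger 8.0.1 per the file headers; the submitters' processing notes instead give version 7.0.0, with mm10 as the genome. The smallest barcode had 500 UMIs.

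The rule for neutrophils was applied to raw UMIs. The members and the 30 gene lists were chosen with earlier results of these data known. For comparison, macrophages had at least 10 C1q UMIs and under 20 of S100a8 and S100a9, monocytes at least 2 of Ly6c2 and 1 of Ccr2, T cells at least 1 of Cd3e and tumour cells at least 1% epithelial UMIs. Doublets were scored by scrublet in scanpy 1.11.5 at 0.8% per 1000 barcodes. Exact intervals are Clopper-Pearson at 95%, limits for a count of 0 are 3 counts, and both cover counting error only.

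UMIs summed over the neutrophils of each library were tested with edgeR 4.0.16 in R 4.3.3 (robust quasi-likelihood, TMM, filterByExpr, prior count 2), with Benjamini-Hochberg adjustment over all genes tested. The depth was 851591, 41296 and 41971 UMIs in Progesterone 1, 2 and 3 and 110230 and 8970 in Placebo 1 and 2, which bounds what is detectable. Alternatives were DESeq2 1.42.0, other size factors, no filter, doublets removed, another S100 limit, thinning and leaving out libraries. The procedure was tested on simulated data.

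Genes were named by rule: the markers, in each list up to 6 past the threshold and the 4 highest, up to 10 highest and 10 lowest ratios in each comparison, the 20 most abundant, those closest to Retnlg, and Ly6g, Siglecf, Cxcr4, Il1b, Arg1 and Cd274. Others, such as those called after the granule-gene-rich cells were left out, were chosen after their values were seen.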

Additional observations from a re-analysis of the deposited data

Results flagged for a closer look

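Of 14 values given above for all 5 libraries, 3 lay on opposite sides of placebo in the batches, each progesterone library of a batch going the same way. These differences between batches were not tested, and batch 1 holds 1 library of each treatment. All are over the 151 neutrophils outside the granule-gene-rich group. The sum of 20 hypoxia and glycolysis genes was 19889 CPM in Progesterone 1 and 5808 CPM in Placebo 1, a difference of 14081 CPM. In batch 2 it was 5884 and 6219 CPM in Progesterone 2 and 3 and 9142 CPM in Placebo 2. The sum of 11 macrophage markers was 514 CPM in Progesterone 1 and 379 CPM in Placebo 1, a difference of 135 CPM, and 363 and 453 CPM in Progesterone 2 and 3 and 669 CPM in Placebo 2. Dusp2 stood at 91.2 CPM in Progesterone 1 and 63.1 CPM in Placebo 1, a difference of 28.1 CPM, and at 339 and 143 CPM in Progesterone 2 and 3 and 2453 CPM in Placebo 2. Placebo 1 and Placebo 2 contributed 4 and 3 of these neutrophils. The 63.1 CPM of Dusp2 in Placebo 1 is 1 UMI, so its side of placebo in batch 1 is within counting error. The placebo sums of the macrophage markers rest on few UMIs as well. The marker with the most was Csf1r in Placebo 1, with 5 UMIs, and Adgre1 in Placebo 2, with 3. The sides of placebo of this sum therefore cannot be told from counting error in either batch.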

How the results depend on the processing

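The share of neutrophils was higher with progesterone on average under all 15 alternatives run. Leaving out each library gave log2 differences from 2.67 to 4.23. The difference was 0.60 among myeloid barcodes and 3.06 among all barcodes, and 3.72 without the granule-gene-rich cells, an alternative added after seeing the data. Permutation within batches, which uses the batch as a replicate block, gave 3.60. With 10 or fewer arrangements no p could pass 0.05. Between treatments the count of genes was 0 with the block and 0 without it, and leaving out each library gave 0 to 7. The minimum of 10 neutrophils per library left no placebo library and was not run. Between batches the count of 86 was 29 by DESeq2, 56 at an S100 limit of 50 and 0 without a filter, which tested 12263 genes in place of 1079; it was 59 after thinning, 74 without the granule-gene-rich cells and 106 without these and the neutrophil of 25779 UMIs, both added after seeing the data. No paired analysis was possible because the batch comparison has 1 library of batch 1, and leaving out a library there leaves no residual degrees of freedom. Of 45 named genes called between batches, some did not reach the count filter without the granule-gene-rich cells. In that fit 20 were called with the same sign, 12 kept the sign without a call and 4 changed sign. The log2 ratios of these 4 were 0.34 for Lcn2, 3.42 for Ngp, 0.30 for S100a8 and 0.36 for Wfdc21. Without the further neutrophil these were 0.29, 3.38, 0.26 and 0.31. These genes are abundant in the cells left out. The ratio of 3.42 for Ngp has an SE of 3.59 and an edgeR adjusted p of 0.63. All 14 UMIs of Ngp in Progesterone 2 came from 1 neutrophil. Of the same 45, 20 were called by DESeq2 and 35 after thinning. Of 12 gene levels, 1 moved beyond the spread of the progesterone libraries when the mean over cells replaced the summed count.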
